A study of Homo sapiens with 6 samples.

Results

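The p38 kinases MAPK11, MAPK12, MAPK13 and MAPK14 and the dual-specificity phosphatases DUSP1, DUSP4, DUSP5, DUSP6, DUSP8 and DUSP10 were taken by gene symbol, 10 of the 23617 symbols in the MDA-MB-231 table. All 10 were found there, and 3 of them were among the 1854 symbols of the HMLER table. Gene expression was measured by RNA-seq of polyadenylated RNA in cells left untreated or given decitabine (DAC, 5-aza-2′-deoxycytidine), a cytidine analog that blocks DNA methyltransferases, daily at 10 µM for 72 h. MDA-MB-231, a human breast cancer cell line, had 1 untreated and 1 DAC-treated library, and HMLER, human mammary cells transformed in culture with defined genes, had 2 of each. RNA of several independent extractions was pooled before sequencing. The medium of HMLER cells alone also held EGF, hydrocortisone, insulin and puromycin. The untreated MDA-MB-231 library carries another line number in 1 label, and its title gave its group here.

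MAP kinases are the last kinases of relays that carry signals from the cell surface and from stress to the nucleus. The p38 branch answers mainly to stress and inflammatory cytokines: upstream kinases add phosphates to a threonine and a tyrosine of p38, and p38 then acts on kinases such as MAPKAPK2 and on transcription factors. The dual-specificity phosphatases remove both phosphates, and several of them are themselves transcribed in response to MAP kinase signaling, which makes them feedback inhibitors. RNA levels report neither phosphorylation nor activity.

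FPKM, the unit of both tables, counts fragments relative to transcript length and to the mapped fragments of a library, so levels of different genes can be compared within a library. In MDA-MB-231 the transcripts of each symbol were summed, and a gene was called higher or lower when its DAC/untreated ratio was above 2 or under its inverse and it reached 1 FPKM in at least 1 library. With 1 library per condition no test was possible and the differences have no replicate check. The bounds given beside a value are the lower and upper FPKM that Cuffdiff assigns to a transcript. Over the 11292 symbols that reached 1 FPKM in each library, DAC/untreated ratios had a median of 0.912 (log2, -0.13). Low values rose in whole steps, from which 1 read over 1 kb was inferred to equal 0.0232 FPKM (untreated) or 0.0233 FPKM (DAC). All of the 767 and 811 low values examined lay within 0.1 of a whole read. In the HMLER table each condition has 1 value, merged by the authors over its libraries, and each listed transcript was more than 2-fold higher after DAC (lowest ratio 2.001). A gene that is not listed there was not analysed in HMLER. Of the markers fixed for MDA-MB-231, VIM stood at 3066 FPKM and CD44 at 212.3 FPKM in untreated cells, while ESR1, PGR and CDH1 were listed at 0. EPCAM (7.90 FPKM) and ERBB2 (11.8 FPKM) were detected. Of the 4 mesenchymal markers, VIM (1134 FPKM after DAC) and ZEB1 (31.1 to 15.2 FPKM) were called lower, with overlapping bounds, SPARC (2.09 to 11.3 FPKM) was called higher, with bounds apart, and CD44 (138.7 FPKM after DAC) was not called. The part of these changes in the results on the p38 genes and phosphatases was not tested.

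The p38 genes form neighboring pairs in the genome. On the hg19 assembly used by the authors, MAPK12 (chromosome 22, 50691331 to 50700089) and MAPK11 (chromosome 22, 50702142 to 50708779) lie 2052 bases apart, and MAPK14 (chromosome 6, 35995454 to 36079013) and MAPK13 (chromosome 6, 36098261 to 36112301) lie 19247 bases apart. Because DAC acts on methylation of CpG sites, the promoters of these 4 genes are shown from RefSeq (GRCh38.p14), from 250 bases before to 50 bases after the gene start, 5′ to 3′ on the gene's strand, with each CpG in capitals. They occupy chr22:50270331-50270630 (minus strand) for MAPK11, chr22:50261634-50261933 (minus strand) for MAPK12, chr6:36130263-36130562 (plus strand) for MAPK13 and chr6:36027558-36027857 (plus strand) for MAPK14.
MAPK11: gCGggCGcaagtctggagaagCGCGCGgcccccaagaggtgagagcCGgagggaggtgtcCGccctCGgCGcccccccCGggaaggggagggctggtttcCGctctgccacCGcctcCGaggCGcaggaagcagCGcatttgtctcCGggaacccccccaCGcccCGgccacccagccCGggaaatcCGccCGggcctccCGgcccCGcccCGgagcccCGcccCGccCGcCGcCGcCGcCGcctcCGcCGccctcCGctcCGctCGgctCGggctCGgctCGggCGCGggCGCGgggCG
MAPK12: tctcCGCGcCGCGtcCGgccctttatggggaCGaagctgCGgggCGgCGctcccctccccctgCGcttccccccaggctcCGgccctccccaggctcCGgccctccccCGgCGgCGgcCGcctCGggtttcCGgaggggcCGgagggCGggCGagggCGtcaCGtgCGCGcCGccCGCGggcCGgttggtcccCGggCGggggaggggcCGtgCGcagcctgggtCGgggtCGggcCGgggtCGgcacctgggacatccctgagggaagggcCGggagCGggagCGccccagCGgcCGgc
MAPK13: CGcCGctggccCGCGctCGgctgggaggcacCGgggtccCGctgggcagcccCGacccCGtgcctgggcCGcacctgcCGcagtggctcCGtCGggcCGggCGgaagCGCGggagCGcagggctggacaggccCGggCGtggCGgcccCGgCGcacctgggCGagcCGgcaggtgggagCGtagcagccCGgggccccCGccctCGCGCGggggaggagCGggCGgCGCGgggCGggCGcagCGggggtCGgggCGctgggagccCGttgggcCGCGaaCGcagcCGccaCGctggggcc
MAPK14: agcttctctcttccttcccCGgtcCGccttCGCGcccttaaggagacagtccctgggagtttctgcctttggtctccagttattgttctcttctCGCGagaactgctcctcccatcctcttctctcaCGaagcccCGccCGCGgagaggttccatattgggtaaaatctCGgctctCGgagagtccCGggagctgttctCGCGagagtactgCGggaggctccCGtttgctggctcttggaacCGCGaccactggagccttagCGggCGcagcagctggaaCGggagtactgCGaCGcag

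The MAPK11 promoter held 44 CpGs, that of MAPK12 42, that of MAPK13 46 and that of MAPK14 24, where the median of 35116 RefSeq promoters of the same length was 14. MAPK11, MAPK12 and MAPK13 thus had more CpGs than 95.8%, 94.2% and 97.1% of promoters, and MAPK14 more than 66.1%. Methylation of these sites was not analysed here. Promoters of 8 of the 10 genes were matched, and those of DUSP4 and DUSP5 were not analysed here. Among the phosphatases, the promoter of DUSP8 held 44 CpGs, that of DUSP1 36, that of DUSP6 19 and those of DUSP10 19 and 8 at its 2 annotated starts. The 8-base cAMP response element TGACGTCA, which reads the same on both strands, occurred in the promoters of DUSP1 and DUSP8 and in 1.85% of all promoters.

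In MDA-MB-231, DAC left 2 of the 10 genes past the 2-fold threshold upward and 0 downward, at an FPKM of 1 or more. Both were p38 genes, MAPK11 and MAPK13. Over all 12525 symbols that reached 1 FPKM, 10.8% were called higher and 4.82% lower. The members that reached 1 FPKM numbered 9, the exception being DUSP8. The 10 DAC/untreated ratios ran from 0.706 to 4.89, and 6 of them were above 1. Of the 9 genes at 1 FPKM or more, 5 had a ratio above 1, as did 43.1% of all symbols at that level. The median log2 change of the 9, with 1 FPKM added to each value, was 0.06, and that of all such symbols was -0.08.

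MAPK11, which encodes p38β, was at 2.69 FPKM in untreated MDA-MB-231 cells (bounds 0.123 to 5.25) and at 13.1 FPKM after DAC (bounds 5.94 to 20.3). The bounds did not overlap, and the ratio was 4.89, or 5.36 relative to the median ratio of all symbols. The gene has 1 transcript in the table, and the values correspond to about 249 and 1209 reads, with 95% Poisson intervals of 219 to 282 and 1142 to 1279 that cover counting error only. Its log2 change of 1.94 was above that of 98.2% of symbols. Of the 4341 symbols with a mean of 5 to 20 FPKM, where MAPK11 lies, 5.11% were called higher. This mean includes the DAC value, so the rise itself moves a gene up. Of the 3527 symbols with a mean of 0.5 to 5 FPKM, the range of its untreated level, 28.7% were called higher. MAPK11 was the only one of the 10 genes with a ratio above 2 and bounds that did not overlap, which 1.06% of symbols showed when the largest transcript of each was used.

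MAPK13, which encodes p38δ, a form known from epithelial cells, was at 16.6 FPKM in the untreated MDA-MB-231 library and at 35.7 FPKM with DAC, a ratio of 2.15. Its coding transcript NM_002754 carried 99.2% of the untreated and 99.0% of the DAC-treated level. The bounds of that transcript, 8.96 to 23.9 untreated and 18.95 to 51.7 after DAC, overlapped. Of the 3659 symbols with a mean of 20 to 100 FPKM, 2.65% were called higher. The share was 5.11% at a mean of 5 to 20 FPKM, the range of its untreated level. MAPK13 passed the 2-fold threshold by a small margin.

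MAPK12, which encodes p38γ, had the highest level of the 4 kinases in both libraries, 57.6 FPKM (bounds 31.6 to 83.6) untreated and 60.2 FPKM (bounds 33.04 to 87.4) after DAC. The ratio was 1.05 and the bounds overlapped over most of their length. MAPK14, which encodes p38α, the broadly expressed form, was at 48.3 FPKM untreated and 35.3 FPKM after DAC, a ratio of 0.730, or 0.800 relative to the median ratio. In each neighboring pair 1 gene was called higher, and the other, MAPK12 or MAPK14, was not.

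MAPK14 is the member with the most transcripts, 4, and 2 of these made up nearly all of its level. NM_139012 was at 30.6 FPKM (bounds 13.01 to 48.1) untreated and 22.2 FPKM (bounds 9.74 to 34.8) after DAC. NM_001315 was at 17.5 FPKM (bounds 4.31 to 30.7) and 12.4 FPKM (bounds 3.09 to 21.8). Their ratios were 0.728 and 0.711, and NM_139012 held 63.2% of the MAPK14 level untreated and 63.1% after DAC, so the balance between the transcripts hardly moved. Both are 4353 bases long and share most of their sequence, which makes the split of reads between them uncertain. The short transcript NM_139013 was listed at 0 untreated and at 0.589 FPKM after DAC, and NM_139014 at 0.264 FPKM and then at 0, all with overlapping bounds.

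**Figure D1:**
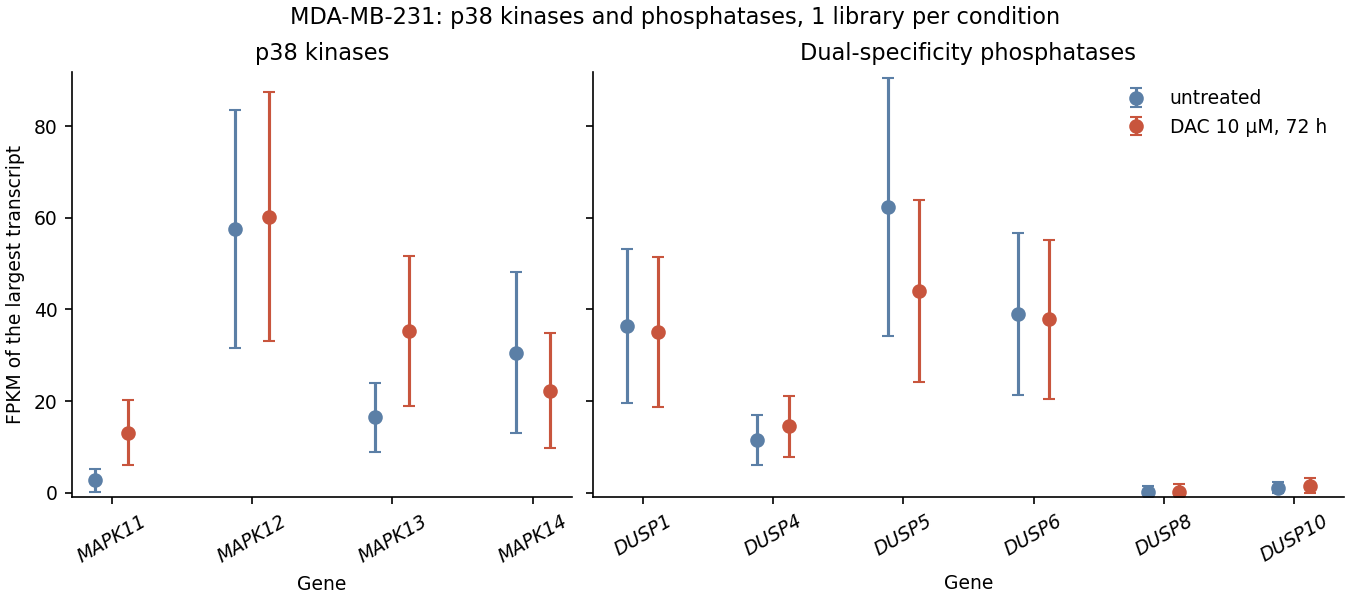
FPKM (linear axis) of the largest transcript of each gene in the untreated (blue) and DAC-treated (red) MDA-MB-231 library, with 1 library per point and bars for the Cuffdiff bounds. MAPK11 is the gene whose bars stand apart (upper bound 5.25 untreated, lower bound 5.94 after DAC); those of MAPK13 overlap, and DUSP1 and DUSP6 sit at nearly the same level in both libraries.

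Summed over the 4 genes, the p38 level of MDA-MB-231 cells was 125.2 FPKM without DAC and 144.3 FPKM with it, a ratio of 1.15. The share of MAPK11 in this sum went from 2.14% to 9.09% and that of MAPK13 from 13.2% to 24.7%. The share of MAPK14 went from 38.6% to 24.4% and that of MAPK12 from 46.0% to 41.7%. The order by level was MAPK12, MAPK14, MAPK13, MAPK11 in untreated cells, and after DAC MAPK13 (35.7 FPKM) stood level with MAPK14 (35.3 FPKM).

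**Figure D2:**
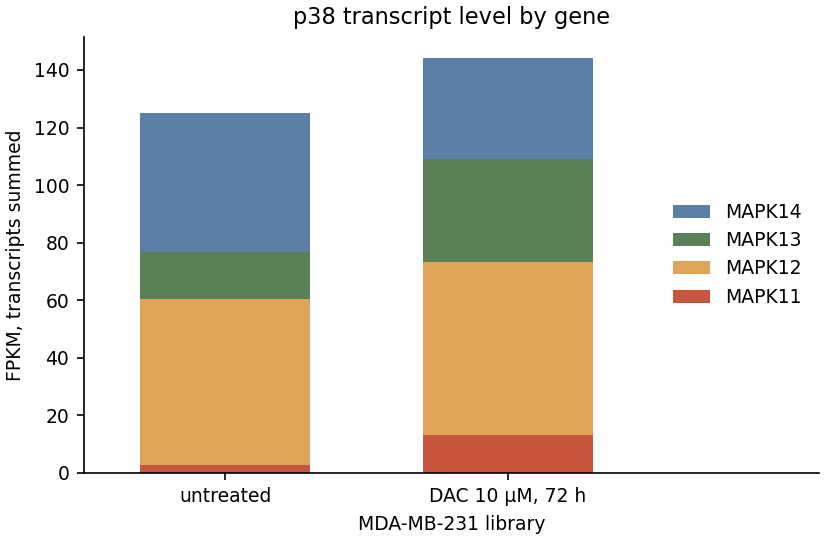
FPKM of the 4 p38 genes, transcripts summed and stacked, in the untreated and the DAC-treated MDA-MB-231 library (1 library each, no error). The total went from 125.2 to 144.3 FPKM, with wider MAPK11 and MAPK13 segments and a narrower MAPK14 segment after DAC.

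None of the 6 phosphatases was called higher or lower in MDA-MB-231, 5 of them having reached 1 FPKM. Their sum was 151.6 FPKM without DAC and 133.6 FPKM with it, a ratio of 0.882, close to the median ratio of all symbols. Their order by level was the same in both libraries: DUSP5, DUSP6, DUSP1, DUSP4, DUSP10 and DUSP8.

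DUSP5 and DUSP6 act mainly on ERK, DUSP5 in the nucleus and DUSP6 in the cytoplasm, and both are ERK feedback genes. DUSP5 (chromosome 10, 112257625 to 112271302) was at 62.3 FPKM (bounds 34.2 to 90.4) without DAC and at 44.0 FPKM (bounds 24.1 to 63.9) with it. Its ratio of 0.706 was the lowest of the 10 genes, its bounds overlapped, and its log2 change of -0.49 was above that of 17.2% of symbols. DUSP6 (chromosome 12, 89741837 to 89746296) was at 40.0 FPKM untreated and 37.9 FPKM after DAC, a ratio of 0.947 that turned to 1.04 relative to the median ratio. Its main transcript NM_001946 was at 38.97 FPKM (bounds 21.3 to 56.7) and 37.9 FPKM (bounds 20.6 to 55.2). The second DUSP6 transcript, NM_022652, was at 1.03 FPKM (bounds 0 to 4.18) untreated and listed at 0 after DAC.

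DUSP1 and DUSP4 are nuclear phosphatases that act on several MAP kinases, p38 among the targets of DUSP1. DUSP1 (chromosome 5, 172195093 to 172198203) was at 36.4 FPKM (bounds 19.5 to 53.2) untreated and 35.01 FPKM (bounds 18.6 to 51.4) after DAC. Its ratio was 0.963, and 1.06 relative to the median ratio, so its direction depends on the scaling. DUSP4 (chromosome 8, 29190579 to 29208267) was at 11.7 and 14.8 FPKM, a ratio of 1.27. Its main transcript NM_001394 had bounds of 6.04 to 16.97 FPKM untreated and 7.87 to 21.1 FPKM after DAC, which overlapped.

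DUSP10 and DUSP8 act mainly on p38 and JNK, and they had the lowest levels of the 10 genes. DUSP10 (chromosome 1, 221874764 to 221915516), summed over 3 transcripts, was at 1.10 FPKM untreated and 1.69 FPKM after DAC, or about 114 and 170 reads. The ratio was 1.54. Its main transcript NM_007207 had overlapping bounds of 0 to 2.33 and 0 to 3.12 FPKM, and the shorter NM_144728 and NM_144729 together stayed under 1 FPKM in each library. DUSP8 was at 0.110 FPKM untreated (bounds 0 to 1.35) and 0.254 FPKM after DAC (bounds 0 to 1.94), about 20 and 46 reads, with 95% Poisson intervals of 12.2 to 30.9 and 33.7 to 61.4. These intervals cover at most counting error of reads inferred from FPKM, which are approximate for a gene in a locus with other transcripts. The intervals do not overlap, while the Cuffdiff bounds do. DUSP8 did not reach 1 FPKM and was not called, although its ratio was 2.31. Cuffdiff placed it in a locus with 14 transcripts (chromosome 11, 1490685 to 1785501).

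**Figure D3:**
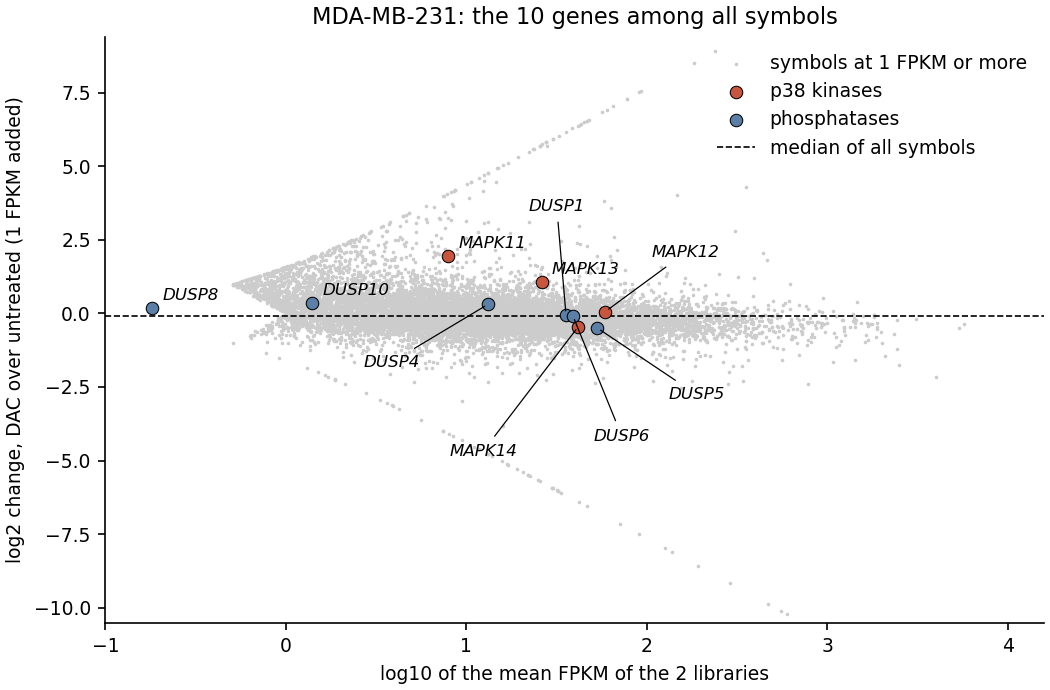
Log2 change after DAC (1 FPKM added to each value) against the log10 of the mean FPKM of both MDA-MB-231 libraries, for the 12525 symbols at 1 FPKM or more (gray) with the p38 genes (red) and the phosphatases (blue, DUSP8 under 1 FPKM) drawn over them. MAPK11 (1.94) and MAPK13 (1.06) lie above the band of most symbols, and the other 8 genes lie between -0.49 and 0.36 (dashed line, median of all symbols, -0.08).

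In HMLER, 3 of the 10 genes were listed as higher after DAC: MAPK11, MAPK13 and DUSP5. Of the 12525 symbols at 1 FPKM or more in MDA-MB-231, 10.9% were listed, and 9 of the 10 genes reached that level. MAPK11 was at 1.35 FPKM in the untreated HMLER cells and at 7.26 FPKM after DAC, a ratio of 5.38. MAPK13 was at 3.09 FPKM untreated and 8.11 FPKM after DAC, a ratio of 2.63, for the same transcript that carried its level in MDA-MB-231. DUSP5 was at 20.02 FPKM untreated and 70.7 FPKM after DAC, a ratio of 3.53. These are the authors' merged values, without a spread between libraries.

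MAPK11 and MAPK13 were higher after DAC in both cell lines, 2 of the 9 members at 1 FPKM or more, where 3.66% of the 12525 symbols were. Since the members were chosen with earlier results of these data known, this is not an independent comparison. The ratios of MAPK11 were 4.89 in MDA-MB-231 and 5.38 in HMLER, and those of MAPK13 were 2.15 and 2.63. DUSP5 had a ratio of 3.53 in HMLER and of 0.706 in MDA-MB-231, where it was not called and its bounds overlapped. In untreated cells DUSP5 was listed at 62.3 FPKM in MDA-MB-231 and at 20.02 FPKM in HMLER, and after DAC at 44.0 and 70.7 FPKM. The tables of the cell lines were made separately, so these levels are given side by side and not compared.

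**Figure D4:**
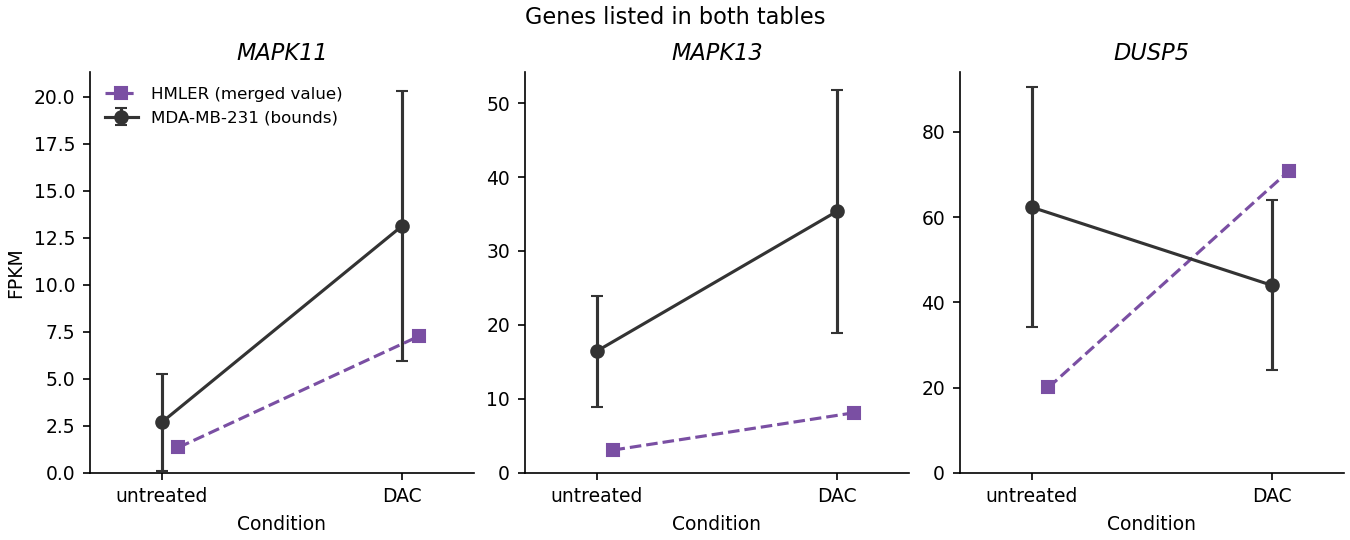
FPKM of MAPK11, MAPK13 and DUSP5 in untreated and DAC-treated cells (each panel has its own linear axis from 0), for MDA-MB-231 (circles, 1 library per condition, largest transcript, bars for the Cuffdiff bounds) and HMLER (squares, the authors' merged value of 2 libraries, no error). MAPK11 and MAPK13 are higher after DAC in both lines, whereas DUSP5 is higher in HMLER (20.02 to 70.7 FPKM) and not in MDA-MB-231 (62.3 to 44.0 FPKM).

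Other genes of the pathway were taken from 6 lists. Of 20 kinases and adapters upstream of p38, 19 reached 1 FPKM in MDA-MB-231, and 0 were called higher or lower. Their median log2 change was -0.07. MAP2K3, a direct activator of p38, was at 58.7 FPKM untreated and 56.7 FPKM after DAC, and TAOK3, a kinase further upstream, at 44.2 and 36.6 FPKM. MAP2K6, the other main activator, stayed at 0.0704 and 0.0425 FPKM. In HMLER, 1 of these genes was listed, MAP3K3, by NM_203351 (2.29 to 5.13 FPKM), 1 of its 2 transcripts in MDA-MB-231. The share listed among symbols at 1 FPKM or more in MDA-MB-231 was 10.9%. MAP2K6 and MAP3K3 were named after their values were seen.

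Of 20 substrates and effectors of p38, 19 reached 1 FPKM, 1 was called higher and 1 lower, and the median log2 change was -0.12. The shares over all symbols at 1 FPKM or more were 10.8% higher and 4.82% lower. DDIT3, a stress-induced transcription factor that p38 phosphorylates, was at 9.12 FPKM untreated and 21.4 FPKM after DAC, summed over 6 transcripts, a ratio of 2.35. Its bounds overlapped, and it was also listed in HMLER, at 19.7 and 70.6 FPKM. DDIT3 was the 1 substrate listed there, beside 10.9% of symbols at 1 FPKM or more in MDA-MB-231. RPS6KA4, a nuclear kinase activated by p38 and ERK, was at 73.02 FPKM untreated and 34.7 FPKM after DAC, a ratio of 0.476, with overlapping bounds. HSPB1, a small heat shock protein phosphorylated downstream of p38, was at 180.9 and 166.4 FPKM.

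Of 11 other regulators of p38, 10 were in the MDA-MB-231 table, 6 reached 1 FPKM, 1 was called higher and 0 lower, with a median log2 change of 0.01. The gene called higher was PTPN7, a tyrosine phosphatase of ERK and p38. Summed over its 5 transcripts PTPN7 was at 0.0172 FPKM, about 2 reads, in untreated MDA-MB-231 cells and at 7.44 FPKM, about 891 reads, after DAC. The bounds of its main transcript, 0 to 0.0596 and 1.98 to 10.2 FPKM, did not overlap. Of the 3527 symbols with a mean of 0.5 to 5 FPKM, where PTPN7 lies, 28.7% were called higher. In HMLER the transcript NM_001199797 of PTPN7 was listed at 0.199 FPKM untreated and 9.03 FPKM after DAC. GADD45A, a stress gene whose product binds the p38 activator MAP3K4, was at 60.3 and 42.3 FPKM in MDA-MB-231, a ratio of 0.701. In HMLER its transcript NM_001924 was listed at 62.6 and 132.3 FPKM. GADD45B was at 60.3 and 32.1 FPKM in MDA-MB-231, a ratio of 0.532 with overlapping bounds. In HMLER 5 of these 10 regulators were listed. Since 4 of the 10 were under 1 FPKM in MDA-MB-231, the share over all 23617 symbols of the MDA-MB-231 table, 7.85%, is given beside this count.

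Of 9 other dual-specificity phosphatases, 7 reached 1 FPKM, 1 was called higher and 0 lower, and the median log2 change was 0.17. DUSP9, a cytoplasmic phosphatase of ERK and p38, was at 0.647 FPKM untreated and 1.81 FPKM after DAC, a ratio of 2.80 with overlapping bounds. Of the 3527 symbols with a mean of 0.5 to 5 FPKM, where DUSP9 lies, 28.7% were called higher. DUSP14 was at 41.03 FPKM and 51.3 FPKM, a ratio of 1.25, and was listed in HMLER at 27.6 and 73.3 FPKM. It was the 1 listed gene of these 9, beside 7.85% of all symbols of the MDA-MB-231 table. DUSP7, a cytoplasmic phosphatase of ERK, was at 27.5 and 23.7 FPKM.

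Of 10 other MAP kinases, 7 reached 1 FPKM and 0 were called in either direction, with a median log2 change of -0.26. MAPK8, which encodes JNK1, was at 63.5 and 52.9 FPKM. All 15 ERK feedback and target genes reached 1 FPKM, 1 was called higher and 0 lower, and the median log2 change was -0.35. The gene called higher was EGR1, an immediate early transcription factor, at 17.9 FPKM (bounds 9.32 to 26.4) untreated and 113.3 FPKM (bounds 58.4 to 168.1) after DAC, a ratio of 6.35. In HMLER 3 of these 15 genes were listed, SPRY4 (ratio 2.81), SPRED2 (4.06) and ETV4 (3.43), and EGR1 was not. Of all symbols at 1 FPKM or more in MDA-MB-231, 10.9% were listed. Each of these ratios is of 1 listed transcript, which was not the largest of its gene in MDA-MB-231. Of the 10 other MAP kinases, 2 were listed, MAPK9 (3.23, for 1 of its 5 transcripts) and MAPK15 (2.89), beside 7.85% of all symbols. These 5 listed genes were named after their values were seen. CCND1, the cyclin D1 gene, was at 156.8 and 81.5 FPKM, a ratio of 0.520, and MYC at 95.6 and 95.5 FPKM. Each of the 6 lists had 0 or 1 gene called higher. The counts were 0 of 19 upstream kinases, 1 of 19 substrates and 1 of 6 other regulators at 1 FPKM or more. They were 1 of 7 other dual-specificity phosphatases, 0 of 7 other MAP kinases and 1 of 15 ERK genes. The share called higher over all symbols was 10.8%. Only the substrates had a gene called lower, RPS6KA4, where 4.82% of all symbols were. No list was tested against these shares.

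**Figure D5:**
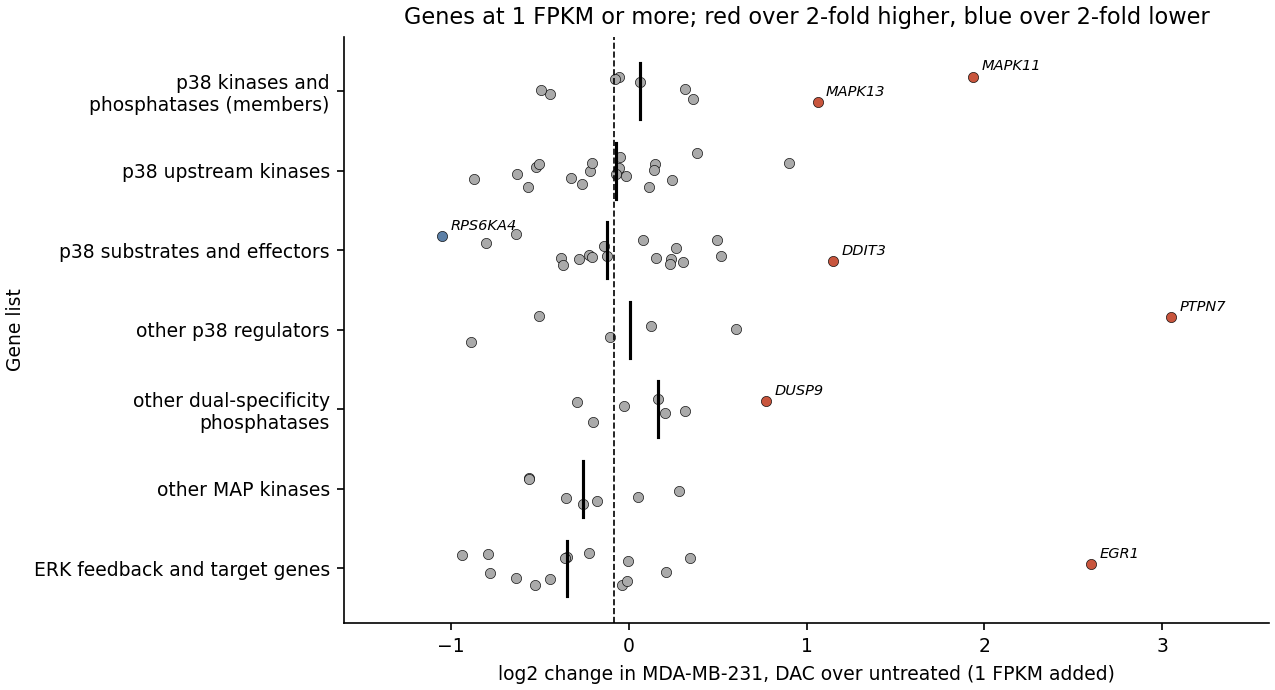
Log2 change after DAC in MDA-MB-231 (1 FPKM added) of each gene at 1 FPKM or more, by list, with list medians (short bars) and the median of all symbols (dashed, -0.08). Red points are genes more than 2-fold higher (MAPK11, MAPK13, DDIT3, PTPN7, DUSP9 and EGR1), the blue point is RPS6KA4, more than 2-fold lower, and the vertical scatter within a list has no meaning.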

How the data were processed

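RNA-seq libraries of polyadenylated RNA (Illumina TruSeq) were aligned by the authors to UCSC hg19 with TopHat2, and the authors deposited FPKM values per RefSeq transcript made with Cuffdiff on the Galaxy server, with bounds for MDA-MB-231. Versions and library scaling are not given in the sources used here. Use of strand in counting is not given either. The deposited tables also hold fold changes and, for HMLER, test results of the authors, which were not used. The HMLER table held 2009 transcripts, none with a ratio under 2.001 or a DAC value under 1.00 FPKM, so genes that fell or did not pass could not be described there. The MDA-MB-231 table held 43497 transcripts.

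FPKM was summed over the transcripts of a symbol. Ratios had no pseudocount; log2 changes had 1 FPKM added, which understates changes of low genes. Genes were called past a 2-fold ratio at 1 FPKM or more in at least 1 library. No test was run, as MDA-MB-231 has 1 library per condition and HMLER 1 merged value. Reads were inferred in MDA-MB-231 from single-transcript symbols over 2000 bases alone in their locus, with 240 bases taken off the length; for other transcripts they are approximate. The effective length of short transcripts can differ from this, and PCR duplicates are not removed from such reads. The calling step was tested on simulated data with known changes well past the threshold and little noise. Such a test checks the code only, and not the noise between libraries or of low counts.

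The members and lists were chosen with earlier results of these data known. From each list the genes past 2-fold (at most 6) and the 2 with the highest level in untreated MDA-MB-231 cells were named. A gene that this rule also names is not reported here. Cuffdiff loci were converted to 1-based positions. Alternatives were the largest transcript alone, no filter or 5 FPKM, division by the median ratio, a pseudocount of 1 FPKM in the ratio or 0.1 FPKM in the log2 change, status OK only, bounds that do not overlap, FPKM minimums in HMLER and the same transcript in both lines. The software was pandas 2.3.3 with numpy 2.4.6, scipy 1.17.1 and matplotlib 3.10.9 under Python 3.11.15.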

Additional observations from a re-analysis of the deposited data

Results flagged for a closer look

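Among the genes named by rule, DUSP5 and GADD45A were listed as higher in HMLER and had a ratio under 1 in MDA-MB-231, where neither was called. The DAC/untreated ratio of DUSP5 was 0.706 in MDA-MB-231 and 3.53 in HMLER. That of GADD45A was 0.701 in MDA-MB-231, while its transcripts NM_001924 and NM_001199741 had ratios of 2.11 and 15.4 in HMLER. In MDA-MB-231 the bounds of the main transcript of each gene overlapped between the libraries. Since the HMLER table holds only rises, each listed gene with a ratio under 1 in MDA-MB-231 shows this pattern. Of the 16 listed members and other pathway genes 6 did so, the others being SPRY4 (0.570 in MDA-MB-231, 2.81 in HMLER), MAPK9 (0.667 and 3.23), MAP3K3 (0.949 and 2.24) and SPRED2 (0.972 and 4.06), and so did the marker CD44 (0.653 and 6.71). Of all symbols at 1 FPKM or more in MDA-MB-231, 43.1% had a ratio above 1. The share among all symbols listed in HMLER was not analysed here, so the count of 6 is not a trait of these genes. None of the 7 genes was called lower in MDA-MB-231. Ratios in MDA-MB-231 are over all transcripts of a gene, whereas those in HMLER are of the listed transcript. The MAPK9 transcript listed in HMLER, NM_001135044, was at 10.04 FPKM untreated and 12.2 FPKM after DAC in MDA-MB-231, with overlapping bounds. In MDA-MB-231 SPRY4, MAP3K3 and SPRED2 each have 2 transcripts. The 1 not listed in HMLER fell by more FPKM than the sum (32.8 to 16.8, 8.55 to 6.35 and 29.2 to 25.2 FPKM). The listed 1 of each gene was thus higher after DAC in both lines. CD44 has 8 transcripts, and the 1 listed in HMLER was not its largest. DUSP5 and NM_001924 of GADD45A (60.3 to 39.4 FPKM in MDA-MB-231) showed the pattern for the same transcript. The difference between the lines was not tested, since each condition has 1 value in each line.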

How the results depend on the processing

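No paired analysis was possible because HMLER conditions come as merged values and each MDA-MB-231 condition is a single library, so leaving out a replicate was not possible either. The 2 members called higher in MDA-MB-231 became 1 when bounds of the largest transcript must not overlap. Without a filter it was 3, with DUSP8. The other alternatives gave 2 higher, and all gave 0 lower. Division by the median ratio turned the log2 changes of DUSP1 to 0.076 and DUSP6 to 0.052. With this division 1 upstream kinase was higher and 0 substrates were lower. With the largest transcript alone, 2 substrates were higher and 2 lower, and 1 ERK feedback gene was lower. Without a filter, 4 other regulators, 2 other dual-specificity phosphatases and 1 other MAP kinase were higher, and 1 other MAP kinase lower. The shares of all symbols called without a filter were not analysed here. With the filter, 28.7% of symbols with a mean of 0.5 to 5 FPKM were already higher and 5.30% lower. At 5 FPKM or more, 0 other dual-specificity phosphatases were higher. The cause was not tested. The count listed in HMLER and that higher in both lines stayed at 3 and 2 under their alternatives.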
